A study of Mus musculus with 32 samples.

Results

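Glutathione S-transferases (GSTs) were examined across 32 mouse hearts as a set of 10 genes chosen by name from the alpha (Gsta1, Gsta2, Gsta3, Gsta4), mu (Gstm1, Gstm2, Gstm5), pi (Gstp1), theta (Gstt1) and kappa (Gstk1) classes. Of these, 9 had a probe set among the 19505 genes measured, and Gsta1 had none. Gene expression was measured in whole hearts on 1-colour Affymetrix Clariom S Mouse arrays, 1 animal per array, as log2 gene-level values. CHCHD10 was wild type (WT) or heterozygous for the G58R mutation in the hearts taken at 14 weeks, and wild type or heterozygous for S59L in those taken at 20 weeks. In both cohorts the animals carried 1 working copy of the gene for the mitochondrial stress protease OMA1 (OMA1+/-) or none, from a constitutive knockout (OMA1-/-), which gave 8 groups of 4 hearts. No group was wild type for OMA1. The G58R allele is a knock-in made by CRISPR/Cas9 on C57Bl6J, and G58R OMA1-/- hearts come from the few animals of that genotype that survived. Each group held 2 males and 2 females, except WT OMA1-/- (3 males) and G58R OMA1+/- (3 females) at 14 weeks.

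GSTs join the thiol of glutathione to electrophiles such as lipid peroxidation products, and the conjugates leave the cell through transporters. Cytosolic alpha, mu, pi and theta enzymes act as dimers, whereas GSTK1 is a separate fold found in mitochondria and peroxisomes. Many alpha and mu genes are known targets of NRF2 (Nfe2l2), a transcription factor that binds the antioxidant response element (ARE) with a small MAF partner. Alpha and mu genes lie in tandem clusters of close paralogs, so that a probe set can pick up RNA of a neighbour, and the level of a named gene is best read as that of its probe set.

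The 10 members span 6 chromosomes in mouse, with Gsta3 on 1, the mu genes on 3, Gstk1 on 6, the other alpha genes on 9, Gstt1 on 10 and Gstp1 on 19. The 250 bases before the start site are shown for members that moved in the mutant hearts (Gsta2, Gsta3, Gstm1, Gstm2), for a neighbour of Gsta2 with a like pattern (Gm10639) and for a member that passed no test (Gstm5). They are RefSeq sequences of GRCm38.p6, read 5′ to 3′ toward the gene, and capitals mark a match to the ARE core TGACNNNGC or to the AP-1 motif TGANTCA on either strand. Overlapping matches, such as the same AP-1 letters read on both strands, were capitalised once. The windows are chr9:78347146-78347395 (minus strand, Gsta2), chr9:78289678-78289927 (plus, Gm10639), chr1:21240335-21240584 (plus, Gsta3), chr3:108017974-108018223 (minus, the first of 2 Gstm1 windows), chr3:107986421-107986670 (minus, Gstm2) and chr3:107895604-107895853 (plus, Gstm5).
Gsta2: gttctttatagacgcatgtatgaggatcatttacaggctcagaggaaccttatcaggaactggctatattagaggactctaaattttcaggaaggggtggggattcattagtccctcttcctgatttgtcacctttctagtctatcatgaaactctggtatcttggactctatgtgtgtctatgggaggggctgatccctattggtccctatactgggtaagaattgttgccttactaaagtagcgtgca
Gm10639: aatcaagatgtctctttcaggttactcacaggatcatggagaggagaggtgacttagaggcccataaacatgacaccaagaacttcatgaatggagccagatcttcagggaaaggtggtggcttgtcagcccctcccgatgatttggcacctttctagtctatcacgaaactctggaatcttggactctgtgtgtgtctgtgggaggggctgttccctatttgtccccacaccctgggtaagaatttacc
Gsta3: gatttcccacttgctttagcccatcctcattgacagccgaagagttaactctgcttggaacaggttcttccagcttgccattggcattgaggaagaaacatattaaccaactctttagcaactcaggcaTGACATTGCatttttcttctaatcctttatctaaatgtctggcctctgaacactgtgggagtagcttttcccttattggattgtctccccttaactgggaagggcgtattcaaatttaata
Gstm1: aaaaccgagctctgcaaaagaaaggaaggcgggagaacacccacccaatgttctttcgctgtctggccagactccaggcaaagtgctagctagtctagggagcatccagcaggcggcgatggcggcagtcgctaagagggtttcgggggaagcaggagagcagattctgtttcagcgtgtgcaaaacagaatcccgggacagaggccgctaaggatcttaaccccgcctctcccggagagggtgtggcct
Gstm2: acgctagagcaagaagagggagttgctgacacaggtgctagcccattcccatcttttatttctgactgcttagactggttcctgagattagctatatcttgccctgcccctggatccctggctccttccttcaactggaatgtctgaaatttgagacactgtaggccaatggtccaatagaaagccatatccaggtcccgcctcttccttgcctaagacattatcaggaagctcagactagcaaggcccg
Gstm5: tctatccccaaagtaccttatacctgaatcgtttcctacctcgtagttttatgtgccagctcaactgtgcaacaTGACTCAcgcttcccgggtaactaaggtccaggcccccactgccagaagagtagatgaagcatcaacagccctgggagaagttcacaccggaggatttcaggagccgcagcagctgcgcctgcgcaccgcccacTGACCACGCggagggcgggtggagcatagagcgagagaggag
The ARE core was found in the Gsta3 window 121 bases before the start and in the Gstm5 window 42 bases before it. The AP-1 motif was found in Gstm5 (176 bases before the start) and in Gstp1 (74 bases). No match to these motifs, or to the C/EBP-ATF motif TGATGNAA, was found in the windows of Gsta1, Gsta2, Gstm1, Gstm2, Gstt1 or Gstk1, and Gsta4 had no window in the table. Over the 27018 genes with a window, 11.5% held the ARE core, 7.82% the AP-1 motif and 3.9% the C/EBP-ATF motif. A match is a description of these letters, and elements farther from the start were not searched. The Gsta2 and Gm10639 windows were 64.8% identical, and Gm10639 was nearest to Gm3776 (97.6%) and Gsta1 (87.9%), neither of which was measured by a probe set of its own.

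All 9 measured members lay above the empirical background, a log2 value of 6.59, on all 32 arrays, with the lowest value at 6.70 (Gstt1). Levels of different genes are not compared, since arrays set no common scale between probe sets. Of 8 cardiomyocyte marker genes, 8 were above background in every group. Oma1 gave mean levels of 9.76 to 10.42 in the 4 OMA1+/- groups and 9.08 to 10 in the 4 OMA1-/- groups. Oma1 differences within a CHCHD10 genotype did not pass the test, and where its probes lie relative to the deletion is not known here. Fat-cell markers stood apart on 7 arrays, with a mean log2 level over 6 adipocyte genes of 9.25 to 13.21 against 5.47 to 7.48 on the other 25. These were replicates 1 to 3 of WT OMA1+/- at 14 weeks, replicate 1 of G58R OMA1-/-, replicate 1 of S59L OMA1+/- and replicates 1 and 2 of S59L OMA1-/-. The liver gene Alb was at 15.29 in replicate 2 of WT OMA1+/- at 20 weeks and at most 6.63 on every other array. In that heart Gsta3 was at 9.36 and Gsta2 at 7.59, and its part in the results was not tested beyond leaving it out, which took the members called in S59L OMA1+/- hearts from 7 to 6 (without Gstt1). In whole hearts, fewer cells of a type and less RNA per cell cannot be told apart.

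**Figure D1:**
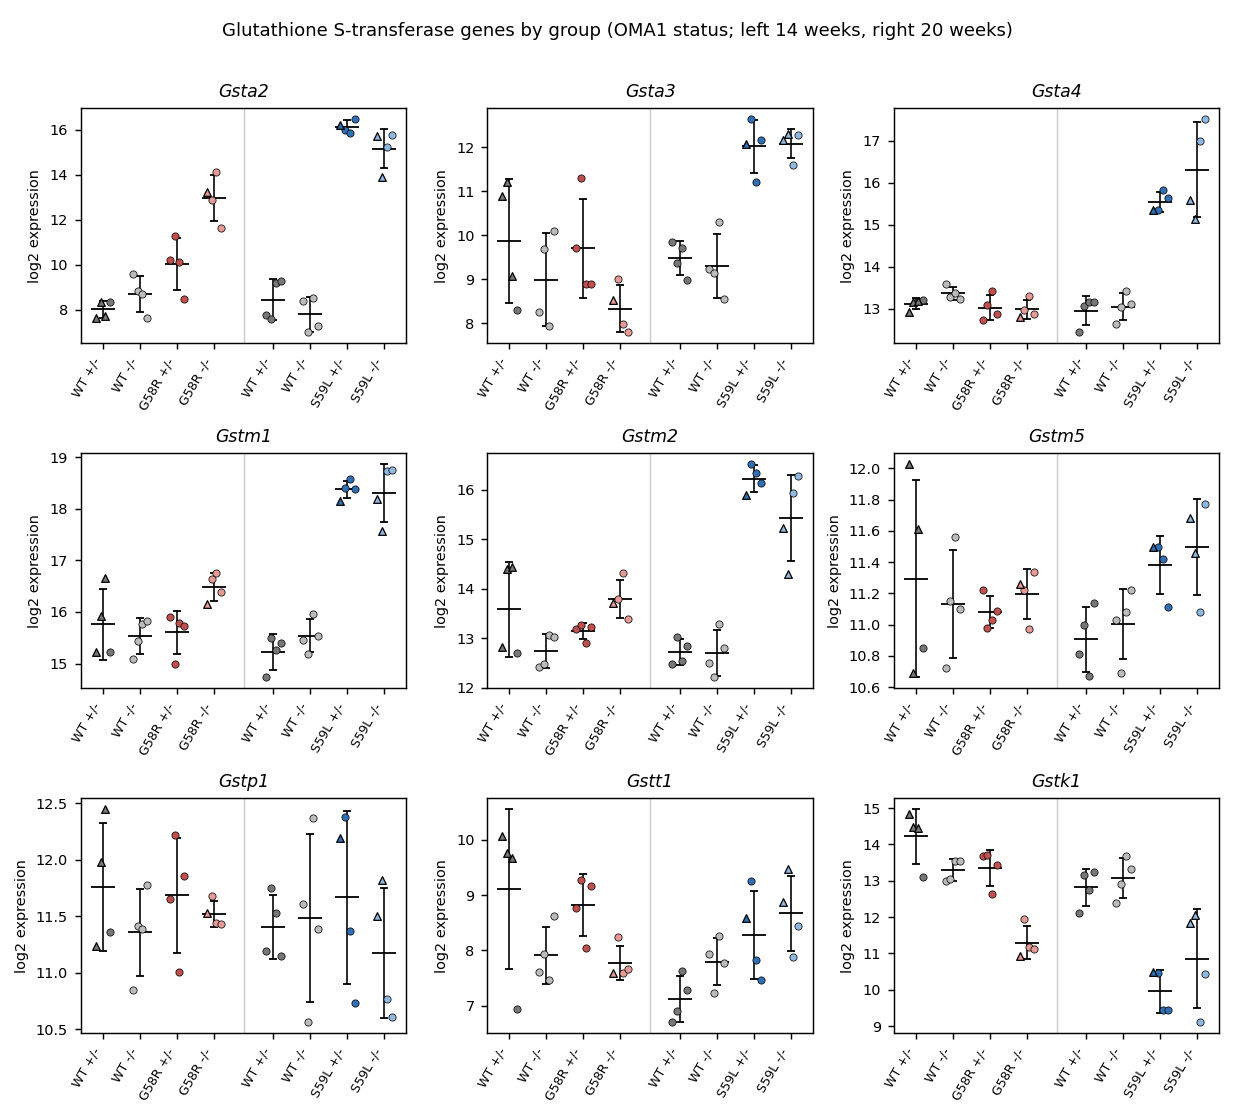
Log2 expression of the 9 measured GST genes on each of 32 arrays, by CHCHD10 genotype and OMA1 status (+/- or -/-), with the 14-week groups left of the line and the 20-week groups right of it. Points are arrays, triangles mark the 7 arrays with high fat-cell markers, and the bars are the mean and SD of 4 arrays. Gsta2 runs from 6.99 to 16.49, and in the S59L groups Gsta2, Gsta3, Gsta4, Gstm1 and Gstm2 lie above and Gstk1 below every WT array of 20 weeks.

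In S59L hearts at 20 weeks the alpha genes Gsta2, Gsta3 and Gsta4 and the mu genes Gstm1 and Gstm2 were raised, and Gstk1 was lowered. The mu gene Gstm5 and the pi gene Gstp1 did not pass the test. Against WT on OMA1+/-, 6 of 9 measured members were called higher and 1 lower, where 36.5% of all genes were called, and the median difference over the members was 2.55 on the log2 scale against -0.15 over all genes. On OMA1-/-, 5 were called higher and 1 lower, where 29.8% of all genes were called, with medians of 2.72 and -0.10. Differences are log2 values ± SE from limma with Benjamini-Hochberg adjustment over all genes, n = 4 per group, and levels are given ± SD.

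Gsta2, an alpha-class enzyme known for reducing lipid hydroperoxides and conjugating electrophiles, showed the largest difference of the measured members in both S59L contrasts. Its log2 values in WT OMA1+/- hearts of 20 weeks were 7.76, 7.59, 9.17 and 9.29, and those in S59L OMA1+/- hearts were 16.22, 16, 15.86 and 16.49. The S59L hearts thus sat in a narrow band far above the WT hearts, a difference of 7.69 ± 0.46 (206-fold, adjusted p = 9.13e-09). On OMA1-/- the WT values were 8.40, 6.99, 8.51 and 7.26, and the S59L values were 15.73, 13.90, 15.24 and 15.78. That difference was 7.37 ± 0.46 (166-fold, adjusted p = 3.67e-08), and the groups again did not overlap. By size of the rise Gsta2 ranked 3 of 19505 genes on OMA1+/- and 4 on OMA1-/-.

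Gsta3, an alpha-class enzyme that in mouse detoxifies aflatoxin epoxide, was at 9.85, 9.36, 9.70 and 8.98 in WT OMA1+/- hearts and at 12.07, 12.65, 11.21 and 12.17 in S59L OMA1+/- hearts. All S59L values lay above all WT values, and the rise was 2.55 ± 0.34 (adjusted p = 2.55e-05). On OMA1-/- it was 2.78 ± 0.34 (adjusted p = 2.14e-05), again with no overlap. Gsta4, whose enzyme is known for conjugating 4-hydroxynonenal, a product of lipid peroxidation, was at 12.43, 13.07, 13.16 and 13.15 in WT OMA1+/- hearts and at 15.36, 15.36, 15.84 and 15.64 in S59L OMA1+/- hearts. The rise was 2.60 ± 0.39 (adjusted p = 7.91e-05) on OMA1+/- and 3.27 ± 0.39 (adjusted p = 1.68e-05) on OMA1-/-. The S59L OMA1-/- hearts were uneven for Gsta4, with 15.59 and 15.14 in the 2 females and 17.00 and 17.53 in the 2 males. The 2 females of that group are also its 2 arrays with high fat-cell markers, so sex and fat-cell markers cannot be told apart there.

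Gstm1, a mu-class enzyme that conjugates a broad set of electrophiles, was at 14.73, 15.50, 15.26 and 15.40 in WT OMA1+/- hearts of 20 weeks. In S59L OMA1+/- hearts it was at 18.16, 18.40, 18.57 and 18.38. This was a difference of 3.15 ± 0.26 (8.9-fold, adjusted p = 1.86e-07), and on OMA1-/- it was 2.77 ± 0.26 (6.83-fold, adjusted p = 1.8e-06). Gstm2, a mu-class enzyme abundant in muscle, was at 12.49, 13.03, 12.54 and 12.84 in WT OMA1+/- hearts and at 15.90, 16.52, 16.33 and 16.14 in S59L OMA1+/- hearts. Its rise was 3.50 ± 0.34 (11.3-fold, adjusted p = 8.13e-07), and on OMA1-/- 2.72 ± 0.34 (6.6-fold, adjusted p = 2.22e-05). No S59L value of Gstm1 or Gstm2 overlapped the WT values of its OMA1 genotype. In S59L OMA1-/- hearts the 2 females lay below the 2 males for Gstm1 (18.19 and 17.57 against 18.74 and 18.75). The same held for Gstm2 (15.22 and 14.29 against 15.93 and 16.27). These females are the 2 arrays of that group with high fat-cell markers, so sex and fat-cell markers cannot be told apart there. Gstm5, a mu-class gene known for expression in brain and testis, stayed between 10.67 and 11.77 on the 16 arrays of 20 weeks. Its differences of 0.48 ± 0.20 and 0.49 ± 0.20 did not pass the test (adjusted p = 0.0638 and 0.0655), with 95% intervals of 0.07 to 0.89 and 0.08 to 0.90. Without replicate 3 of S59L OMA1-/- both passed (0.48 and 0.63, adjusted p = 0.0495 and 0.0265).

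Gstp1, the pi-class enzyme, ranged from 10.56 to 12.38 over the 20-week hearts, and its groups overlapped. Its difference was 0.26 ± 0.39 on OMA1+/- (adjusted p = 0.611, 95% interval -0.56 to 1.08) and -0.31 ± 0.39 on OMA1-/- (adjusted p = 0.573, interval -1.13 to 0.51). Gstp1 shares much of its sequence with Gstp2, so its probe set may read both. Gstt1, a theta-class enzyme that acts on small halogenated compounds, was at 6.70, 6.90, 7.63 and 7.29 in WT OMA1+/- hearts and at 8.58, 9.25, 7.82 and 7.46 in S59L OMA1+/- hearts. The groups overlapped, and the rise of 1.15 ± 0.38 passed the test (adjusted p = 0.0239) but was lost when any 1 of 4 arrays was left out (replicates 1 and 2 of either group, adjusted p = 0.0555 to 0.0932). It was also lost with the fat-cell marker mean as a covariate (0.91, adjusted p = 0.0529). On OMA1-/- the difference was 0.87 ± 0.38 (adjusted p = 0.0896), and it passed without replicate 3 of S59L OMA1-/- (1.13, adjusted p = 0.0368).

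Gstk1, the mitochondrial and peroxisomal kappa-class enzyme, went the other way. It was at 12.11, 13.15, 12.75 and 13.25 in WT OMA1+/- hearts and at 10.50, 10.45, 9.43 and 9.44 in S59L OMA1+/- hearts. All S59L values lay below all WT values, a difference of -2.86 ± 0.51 (7.25-fold lower, adjusted p = 0.000379). On OMA1-/- the WT values were 12.39, 12.90, 13.69 and 13.33, and the S59L values were 11.85, 12.05, 9.10 and 10.44. This gave -2.22 ± 0.51 (4.65-fold lower, adjusted p = 0.00378). In both S59L groups the 2 males lay below the 2 females for Gstk1, with the males at 9.43 and 9.44 on OMA1+/- and at 9.10 and 10.44 on OMA1-/-, and the females at 10.50 and 10.45 and at 11.85 and 12.05. In WT OMA1-/- hearts the 2 males (12.39 and 12.90) also lay below the 2 females (13.69 and 13.33), whereas in WT OMA1+/- hearts the sexes overlapped, and the sex difference was not tested.

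**Figure D2:**
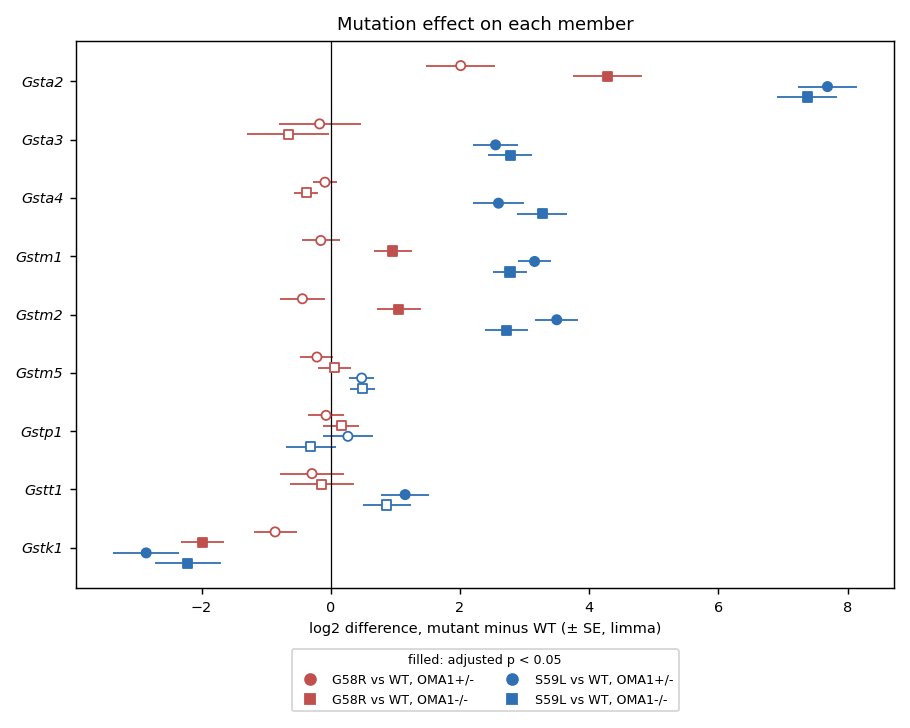
Log2 difference between mutant and WT hearts for each measured GST gene, with limma's SE as bars (4 arrays per group). Red is G58R at 14 weeks and blue is S59L at 20 weeks, circles are OMA1+/- and squares OMA1-/-, and filled marks passed an adjusted p of 0.05. Gsta2 is the farthest right in all 4 contrasts, up to 7.69 in S59L OMA1+/-, and Gstk1 lies left of 0 in each.

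In G58R hearts at 14 weeks members were called on OMA1-/- but not on OMA1+/-. Calls over all genes differed likewise (33.6% and 1.98%), so nothing is read from this contrast of counts. A difference between OMA1 genotypes was tested as an interaction, which called 0 members. On OMA1+/-, 0 of 9 members were called, where 1.98% of all genes were. In limma 2 members (Gsta2 and Gstk1) had an unadjusted p below 0.05, as did 3476 of 19505 genes, and nothing is read from that count. Gsta2 was at 7.62, 8.33, 7.74 and 8.36 in WT OMA1+/- hearts and at 10.22, 11.28, 10.11 and 8.47 in G58R OMA1+/- hearts. The G58R values all lay above the WT values, and the difference of 2.01 ± 0.53 (4.03-fold) had an adjusted p of 0.057. It passed in 4 other settings of the fit, at an adjusted p of 0.0284 to 0.0489, and without any 1 of 3 arrays, namely replicate 4 of G58R OMA1+/- and replicates 3 and 4 of G58R OMA1-/- (adjusted p = 0.0114 to 0.0483). Gstk1 was at 14.83, 14.49, 14.45 and 13.11 in WT OMA1+/- hearts and at 13.67, 13.70, 12.63 and 13.43 in G58R OMA1+/- hearts, a difference of -0.86 ± 0.33 (adjusted p = 0.184) that passed without replicate 4 of WT OMA1+/- (-1.23, adjusted p = 0.0269). Replicates 1 to 3 of WT OMA1+/-, the 3 with high fat-cell markers, were the 3 highest for Gstk1 and also for Gstt1, which was at 10.07, 9.75 and 9.66 there and at 6.95 in replicate 4. Against replicate 4 alone, which is what remained of WT OMA1+/- without the 7 arrays of high fat-cell markers, the Gstt1 difference was 1.87, where the full set gave -0.29 ± 0.50. With 1 array in that arm the spread comes from the other groups, so no call is read from it.

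On OMA1-/- the G58R hearts showed 3 members called higher and 1 lower, where 33.6% of all genes were called. The median over the members was 0.06 against -0.10 over all genes, and nothing is read from the count. Gsta2 was at 9.58, 8.82, 8.72 and 7.64 in WT OMA1-/- hearts and at 13.24, 12.87, 14.14 and 11.64 in G58R OMA1-/- hearts. This was a rise of 4.28 ± 0.53 (19.4-fold, adjusted p = 1.15e-05), called with each array left out in turn. Gstk1 was at 13, 13.05, 13.54 and 13.55 in WT OMA1-/- hearts and at 10.93, 11.95, 11.18 and 11.13 in G58R OMA1-/- hearts. It fell by 1.99 ± 0.33 (3.97-fold lower, adjusted p = 0.000205), with no overlap. Gstm1, at 15.08, 15.44, 15.77 and 15.83 in WT, was at 16.16, 16.64, 16.76 and 16.39 in G58R hearts, a rise of 0.96 ± 0.29 (adjusted p = 0.0178). Gstm2, at 12.43, 12.48, 13.06 and 13.03 in WT, was at 13.72, 13.79, 14.31 and 13.38 in G58R hearts, a rise of 1.05 ± 0.34 (adjusted p = 0.0243). The Gstm1 and Gstm2 calls were lost when the arrays were quantile normalized (0.61 and 0.63, adjusted p = 0.11 and 0.157), under which Gsta4 was called lower (-0.81, adjusted p = 0.0053). Both were also lost without replicate 1 of WT OMA1-/- (adjusted p = 0.0659 and 0.0729), and Gstm2 without replicate 2 of that group (0.0631) or replicate 3 of G58R OMA1-/- (0.0755).

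Gsta3 and Gsta4 did not pass the test in G58R hearts of either OMA1 genotype. Gsta3 spread widely in the 14-week groups, from 8.29 to 11.22 in WT OMA1+/- and from 7.81 to 9.01 in G58R OMA1-/-, where its difference from WT was -0.66 ± 0.63. For Gsta4 the differences were -0.09 ± 0.19 on OMA1+/- and -0.38 ± 0.19 on OMA1-/- (adjusted p = 0.835 and 0.123), with 95% intervals of -0.48 to 0.30 and -0.77 to 0.01. Gstm5, Gstp1 and Gstt1 differed by between -0.29 and 0.16 in the 2 G58R contrasts, and their groups overlapped.

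The effect of OMA1 loss was measured within each CHCHD10 genotype. In G58R hearts Gsta2 was higher on OMA1-/- than on OMA1+/- by 2.95 ± 0.53 (7.73-fold, adjusted p = 0.00239) and Gstk1 lower, at -2.06 ± 0.33 (adjusted p = 0.000926), which made 2 members called of 9, where 4.49% of all genes were called. The groups did not overlap for either gene. The differences of Gstm1 and Gstm2, 0.89 ± 0.29 and 0.66 ± 0.34, did not pass (adjusted p = 0.109 and 0.37). Their G58R OMA1-/- values all lay above the G58R OMA1+/- values, but overlap was not counted over all genes, so nothing is read from this. A further call appeared when 1 array was left out, of Gstm1 without replicate 3 of WT OMA1+/- (adjusted p = 0.0468) and of Gstt1 without replicate 4 of that group (-1.04, adjusted p = 0.0309). Gstm1 was also called without the 7 arrays of high fat-cell markers (0.99, adjusted p = 0.0349). In WT hearts of 14 weeks limma called 0 members, with 3 at an unadjusted p below 0.05, and 0% of all genes (2276 of 19505 had an unadjusted p below 0.05), with Gsta2 at 0.68 ± 0.53 and Gstk1 at -0.93 ± 0.33 (adjusted p = 0.632 and 0.331). Without replicate 4 of WT OMA1+/-, which leaves its 3 arrays of high fat-cell markers, Gstk1, Gstm2 and Gstt1 were called lower there (-1.30, -1.13 and -1.91). The interaction of G58R and OMA1 loss called 0 members, where 3.13% of all genes were called. In limma 4 members had an unadjusted p below 0.05 for it, as did 3580 of 19505 genes. Its values were 2.27 ± 0.75 for Gsta2 (adjusted p = 0.107), 1.49 ± 0.48 for Gstm2 (adjusted p = 0.1) and -1.13 ± 0.47 for Gstk1 (adjusted p = 0.203), so that a difference between the OMA1 effects in G58R and WT hearts was not shown for any member. Leaving out replicate 4 of WT OMA1+/- made the interaction pass for Gstm1 and Gstm2 (1.29 and 1.79), and leaving out replicate 2 of G58R OMA1+/- made it pass for Gsta2 (2.69, adjusted p = 0.0439).

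In S59L hearts limma called 0 of 9 members for OMA1 loss, where 0.846% of all genes were called. Gsta2 was lower in all 4 S59L OMA1-/- hearts than in the 4 OMA1+/- hearts, but by -0.98 ± 0.46 (adjusted p = 0.471, 95% interval -1.95 to -0.01). Gstm2 differed by -0.80 ± 0.34 (adjusted p = 0.387), Gstk1 by 0.90 ± 0.51 (adjusted p = 0.596) and Gsta4 by 0.77 ± 0.39 (adjusted p = 0.527). For Gstm2 the 2 female S59L OMA1-/- hearts (15.22 and 14.29) lay below all S59L OMA1+/- hearts, and the 2 males (15.93 and 16.27) lay within their range. Without the 7 arrays of high fat-cell markers, Gsta4 passed (1.65, adjusted p = 0.00774), and the arrays left in S59L OMA1-/- were then the 2 males. With no array left out, limma gave 2 of the 9 members (Gsta2 and Gstm2) an unadjusted p below 0.05 for OMA1 loss in S59L hearts. It did so for 2040 of 19505 genes. In WT hearts of 20 weeks OMA1 loss called 0 members, with 0 at an unadjusted p below 0.05, where 0.00513% of all genes were called. In the interaction of S59L and OMA1 loss the same counts were 0 and 0, where 0.0718% of all genes were called. Of 19505 genes, 1113 had an unadjusted p below 0.05 for OMA1 loss in these WT hearts and 1584 in this interaction.

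**Figure D3:**
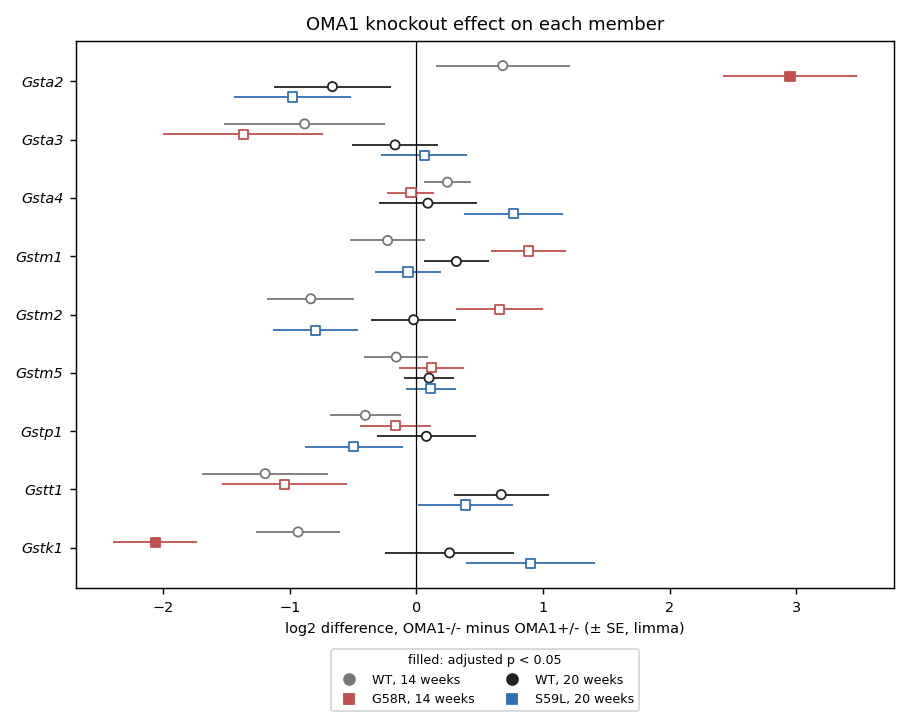
Log2 difference between OMA1-/- and OMA1+/- hearts for each measured GST gene within the 4 pairs of groups that share age and CHCHD10 genotype, with limma's SE as bars (4 arrays per group). Filled marks passed an adjusted p of 0.05. These are Gsta2 (2.95) and Gstk1 (-2.06) in G58R hearts, and no member passed in S59L or WT hearts.

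The mutation effects were then set against each other, as the S59L minus WT difference less the G58R minus WT difference in a fit of all 32 arrays. Mutation, age and cohort cannot be told apart in this comparison, and whether the 2 cohorts were normalized together is not known. On OMA1+/- 5 of 9 members were called, all larger with S59L, where 8.33% of all genes were called. These were Gsta2 (5.68 ± 0.75, adjusted p = 1.32e-05), Gstm2 (3.94 ± 0.50), Gstm1 (3.31 ± 0.40), Gsta3 (2.72 ± 0.78, adjusted p = 0.0253) and Gsta4 (2.69 ± 0.45). On OMA1-/- 4 were called, where 0.933% of all genes were, namely Gsta4 (3.65 ± 0.45, adjusted p = 6.62e-05), Gsta3 (3.44 ± 0.78, adjusted p = 0.0217), Gsta2 (3.09 ± 0.75, adjusted p = 0.0357) and Gstm1 (1.81 ± 0.40, adjusted p = 0.0195). Gstk1 differed by -2.0 ± 0.64 on OMA1+/- (adjusted p = 0.0502) and by -0.23 ± 0.64 on OMA1-/- (adjusted p = 0.942). The Gsta3 differences were lost with the fat-cell marker mean as a covariate (1.93 and 2.88, adjusted p = 0.18 and 0.0768), and that on OMA1+/- was 1.13 without the 7 arrays of high fat-cell markers, a value that rests on 1 WT OMA1+/- array at 14 weeks, with the spread taken from the other groups. On OMA1+/- it was also lost in 6 of 32 fits that left out 1 array (adjusted p = 0.052 to 0.0726), namely replicate 1 or 2 of WT or 3 or 4 of G58R at 14 weeks, or replicate 4 of WT or 2 of S59L at 20 weeks. On OMA1-/- it was lost in 4 such fits (adjusted p = 0.0539 to 0.0636), namely replicate 2 or 4 of WT or 4 of G58R at 14 weeks, or replicate 4 of WT at 20 weeks. The Gsta2 difference on OMA1-/- was lost in 10 of these fits (2.65 to 3.18, adjusted p = 0.0559 to 0.0968), which left out replicates 1, 2 and 3 of WT and 1, 2 and 4 of G58R at 14 weeks or replicates 2 and 4 of WT and 1 and 3 of S59L at 20 weeks. The Gstm1 difference on OMA1-/- was lost without replicate 1 of G58R (1.71, adjusted p = 0.05) or replicate 3 of S59L (1.67, adjusted p = 0.0577). In the other direction, the Gstk1 difference on OMA1+/- passed in 10 such fits (adjusted p = 0.0167 to 0.0488), among them each fit without 1 of the 4 S59L OMA1-/- hearts, whose values do not enter it but whose spread does. It also passed with the fat-cell marker mean as a covariate (-3.24, adjusted p = 0.000552), under quantile normalization (-2.26, adjusted p = 0.0165), with sex as a covariate (-1.84, adjusted p = 0.0404) and with only genes above background tested (adjusted p = 0.0335), and without the 7 arrays, with the same single WT array, it was -3.29. The Gstt1 difference on OMA1+/- passed without replicate 4 of WT at 14 weeks (2.16, adjusted p = 0.00431), and the Gstm2 difference on OMA1-/- without replicate 2 of S59L (2.05, adjusted p = 0.024).

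Cell-type markers of several lists moved in the same contrasts, and their counts are set against the share of all genes called. That share was 36.5% in S59L OMA1+/-, 29.8% in S59L OMA1-/-, 33.6% in G58R OMA1-/- and 1.98% in G58R OMA1+/- hearts. Of 9 macrophage markers, 8 were called higher in S59L hearts on OMA1+/- and 8 on OMA1-/-, 5 in G58R OMA1-/- hearts and 0 in G58R OMA1+/- hearts. Their mean log2 level per array was 8.93 to 9.5 in WT OMA1+/- hearts of 20 weeks and 11.38 to 12.32 in S59L OMA1+/- hearts. On OMA1-/- it was 9.12 to 9.20 in WT hearts and 10.47 to 12.33 in S59L hearts. Of 7 endothelial markers, 7 were called lower in S59L OMA1+/- hearts, 7 in G58R OMA1-/- and 5 in S59L OMA1-/- hearts, with mean levels of 12.82 to 13.21 in WT OMA1+/- hearts of 20 weeks and 11.18 to 11.87 in S59L OMA1+/- hearts. All 9 macrophage and all 7 endothelial markers were above background in every group, and the cardiomyocyte markers had means of 17.32 to 18.48 on all arrays. Of the 8 cardiomyocyte markers, 3 were called lower in G58R OMA1-/- hearts, 2 lower and 1 higher in S59L OMA1+/-, 4 lower and 1 higher in S59L OMA1-/- and 0 in G58R OMA1+/- hearts. Of 7 fibroblast markers, 3 were called higher in S59L OMA1+/- hearts, 1 in S59L OMA1-/-, 1 in G58R OMA1-/- and 0 in G58R OMA1+/- hearts. Nothing is read from the cardiomyocyte and fibroblast counts, and the part of other cell types in the GST differences was not tested. Of 6 adipocyte markers, 4 were called higher in S59L OMA1-/- hearts and 0 in S59L OMA1+/- hearts, and Adipoq, Plin1, Lep and Retn lay below background on all WT arrays of 20 weeks. Hearts without high fat-cell markers gave the same calls for Gsta2, Gsta3, Gsta4, Gstm1, Gstm2 and Gstk1 in S59L hearts of both OMA1 genotypes, with Gsta2 at 7.66 and 7.72. In S59L OMA1-/- the hearts left were the 2 males. These lay above the 2 females for Gsta4, Gstm1 and Gstm2 and below them for Gstk1, Gstp1 and Gstt1.

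Other GST genes of the list, 17 of 18 with a probe set and 13 above background on average, differed between classes. Gm10639, an alpha-class gene beside Gsta2 that was outside the list and was named for its likeness to Gsta2, was at 6.61 to 8.39 in WT OMA1+/- hearts of 20 weeks and at 13.73 to 14.25 in S59L OMA1+/- hearts, a rise of 6.37 ± 0.52 (adjusted p = 1.79e-07). In G58R OMA1-/- hearts it rose by 2.17 ± 0.37 (adjusted p = 0.00023), and within G58R hearts it was higher on OMA1-/- by 1.69 ± 0.37 (adjusted p = 0.0107), a call lost without replicate 4 of G58R OMA1+/-. The list had 8 genes called higher and 1 lower in S59L OMA1+/- hearts, and 8 and 0 in S59L OMA1-/- hearts, where 36.5% and 29.8% of all genes were called, with medians of 0.69 and 0.68 against -0.15 and -0.10 over all genes. In G58R hearts it had 1 higher and 1 lower on OMA1+/- and 5 and 3 on OMA1-/-, where 1.98% and 33.6% of all genes were called, with medians of -0.17 and 0.43 against -0.03 and -0.10. The mu genes Gstm4 (3.54 ± 0.32), Gstm6 (3.31 ± 0.32) and Gstm3 (2.89 ± 0.26) rose in S59L OMA1+/- hearts, and Gstm4 (2.07 ± 0.32) and Gstm6 (1.14 ± 0.34) rose in G58R OMA1-/- hearts. The Gstm6 call there was lost under quantile normalization and without replicate 1 of G58R OMA1-/-. Gsto1, an omega-class enzyme with thioltransferase activity, was the member of this list with the smallest adjusted p in both G58R contrasts. It was at 11.91 to 12.89 in WT OMA1+/-, 13.17 to 14.43 in G58R OMA1+/- and 15.76 to 15.89 in G58R OMA1-/- hearts, with rises of 1.67 ± 0.28 on OMA1+/- (adjusted p = 0.00363) and 3.59 ± 0.28 on OMA1-/- (adjusted p = 7.14e-08). Its interaction of G58R and OMA1 loss was 1.93 ± 0.40 (adjusted p = 0.0139) but was not called with the fat-cell marker mean as a covariate (1.51, adjusted p = 0.306) or with all 32 arrays in 1 fit. That of Gstm4 (1.84 ± 0.46, adjusted p = 0.0333) was not called with the covariate either (0.64, adjusted p = 0.681) and was lost in 10 of 16 fits that left out 1 array. The Gsto1 call in G58R OMA1+/- hearts was lost in a fit of those 8 arrays alone.

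Gstz1, a zeta-class enzyme of tyrosine breakdown, rose by 2.55 ± 0.41 in S59L OMA1+/-, by 2.55 ± 0.41 in S59L OMA1-/- and by 2.24 ± 0.63 in G58R OMA1-/- hearts. In WT OMA1+/- hearts of 14 weeks it was at 12.27, 11.92 and 11.58 on the arrays of high fat-cell markers and at 8.08 on the fourth. The microsomal, membrane-bound family, unrelated in sequence, went in both directions. Mgst1 was called lower in G58R OMA1+/- hearts (-1.96 ± 0.37, adjusted p = 0.00922), a call lost with the fat-cell marker mean as a covariate (-0.97, adjusted p = 0.0859) and in a fit of those 8 arrays alone, and higher in S59L OMA1+/- and OMA1-/- hearts (1.46 ± 0.36 and 2.59 ± 0.36). Mgst3 fell by 1.5 ± 0.23 in G58R OMA1-/- and by 1.10 ± 0.32 in S59L OMA1+/- hearts. Hpgds, the sigma-class GST that makes prostaglandin D2 and is known from mast cells and macrophages, rose by 2.31 ± 0.32 in S59L OMA1+/- hearts and was the 1 gene of the list that OMA1 loss changed in S59L hearts (-1.94 ± 0.32, adjusted p = 0.00628), a call lost in a fit of those 8 arrays alone. In S59L OMA1-/- hearts it was at 6.74 to 8.50, against 9.31 to 9.85 in S59L OMA1+/- hearts.

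**Figure D4:**
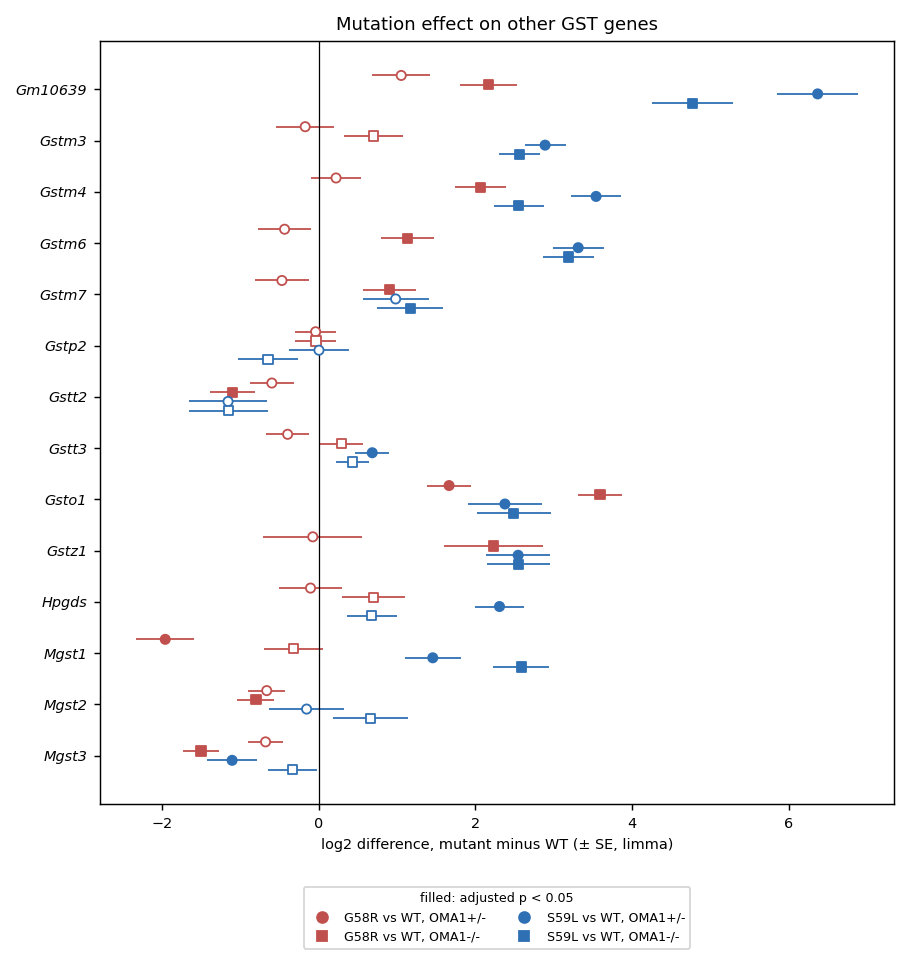
Log2 difference between mutant and WT hearts for Gm10639 and for the 13 other GST genes of the list that lay above background on average, with limma's SE as bars (4 arrays per group). Red is G58R at 14 weeks and blue S59L at 20 weeks, circles are OMA1+/- and squares OMA1-/-, and filled marks passed an adjusted p of 0.05. The mu genes Gstm3, Gstm4 and Gstm6 lie between 2.56 and 3.54 in both S59L contrasts, and Mgst3 lies left of 0 in all 4.

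A list of glutathione synthesis, precursor supply and turnover held 15 measured genes, breakdown enzymes such as Chac1 and Chac2 among them. Of these, 8 were called higher and 3 lower in S59L OMA1+/- hearts, 7 and 2 in S59L OMA1-/-, 9 and 1 in G58R OMA1-/- and 3 and 0 in G58R OMA1+/- hearts, where 36.5%, 29.8%, 33.6% and 1.98% of all genes were called. The higher genes included Chac1 in all 4 contrasts and Chac2 in G58R OMA1-/- hearts, and the 3 in G58R OMA1+/- hearts were Slc7a11, Slc3a2 and Chac1. Gclc and Gclm, the catalytic and modifier subunits of the rate-limiting ligase, rose by 2.2 ± 0.24 and 4.26 ± 0.39 in S59L OMA1+/- hearts and by 0.79 ± 0.20 and 1.32 ± 0.36 in G58R OMA1-/- hearts. The Gclc call in G58R OMA1-/- hearts was lost under quantile normalization. Gss, glutathione synthetase, rose by 3.96 ± 0.51 and 3.39 ± 0.28 in the same contrasts. Its WT levels were near background, with means of 6.46 in WT OMA1+/- hearts of 20 weeks and 6.76 in WT OMA1-/- hearts of 14 weeks. In each of these groups 1 array lay below background, so the size of the rises is uncertain. Slc7a11, the cystine carrier that is also an ATF4 target, was below background in all WT OMA1-/- hearts of both cohorts, so its rise was at least 3.44 on the log2 scale with G58R and at least 0.88 with S59L on OMA1-/-. Its level was lower in S59L OMA1-/- (6.82 to 8.49) than in S59L OMA1+/- hearts (9.44 to 10.92), a difference of -2.72 ± 0.35 (adjusted p = 0.000561). It was higher in G58R OMA1-/- (9.26 to 11.14) than in G58R OMA1+/- hearts (7.28 to 7.97), by 2.40 ± 0.32 (adjusted p = 0.000148). Slc3a2, the heavy chain of that carrier, was at -0.79 ± 0.16 for OMA1 loss in S59L hearts and 1.06 ± 0.22 in G58R hearts (adjusted p = 0.0272 and 0.00804). The S59L value was not called with the fat-cell marker mean as a covariate (-0.71, adjusted p = 0.0602), with the replicate block, in a fit of those 8 arrays alone, without the 7 arrays of high fat-cell markers (-0.66, adjusted p = 0.188) or in 5 of 16 fits that left out 1 array (replicates 2, 3 and 4 of S59L OMA1+/- and 1 and 2 of S59L OMA1-/-). Chac1, which degrades glutathione, was below background on all WT arrays, and its rise was at least 1.74 in S59L OMA1+/- hearts. In G58R OMA1+/-, G58R OMA1-/- and S59L OMA1-/- hearts 2 of 4 arrays were also below background for Chac1. Its means there were 6.69, 7.12 and 6.02, the last below the background of 6.59, so the size of those rises is uncertain.

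A further list held 13 measured enzymes that use or reduce glutathione and the thioredoxin reductases Txnrd1 and Txnrd2, which act on thioredoxin. Of these 15, 12 were called higher in G58R OMA1-/-, 9 in S59L OMA1+/-, 9 in S59L OMA1-/- and 1 in G58R OMA1+/- hearts, and 0 lower in these contrasts. Of all genes, 33.6%, 36.5%, 29.8% and 1.98% were called in these contrasts, in the same order. Txnrd1 was among the genes called in G58R OMA1-/- and in both S59L contrasts, and Txnrd2 in G58R OMA1-/- hearts. Esd, which hydrolyses S-formylglutathione, rose by 4.98 ± 0.41 in S59L OMA1+/- hearts and by 2.71 ± 0.23 in G58R OMA1-/- hearts. Gsr, glutathione reductase, was the gene called in G58R OMA1+/- hearts (1.0 ± 0.25, adjusted p = 0.0446), a call lost in 13 of 16 fits that left out 1 array. Gpx3, the secreted glutathione peroxidase, rose by 3.96 ± 0.39 in S59L OMA1+/- hearts and Gpx1 by 2.23 ± 0.25. Of 10 measured genes of export and mitochondrial transport, 5 were called higher and 1 lower in S59L OMA1+/- hearts, 4 and 1 in S59L OMA1-/-, 3 and 1 in G58R OMA1-/- and 1 and 1 in G58R OMA1+/- hearts. The shares of all genes called there were 36.5%, 29.8%, 33.6% and 1.98%, and nothing is read from the export count in G58R OMA1-/- hearts. Slc25a39, the mitochondrial glutathione carrier, rose by 1.71 ± 0.27 in G58R OMA1+/-, 3.04 ± 0.27 in G58R OMA1-/- and 3.81 ± 0.39 in S59L OMA1+/- hearts. The exporter Abcc4 rose in S59L OMA1+/- hearts (2.65 ± 0.33) and was lower on OMA1-/- within S59L hearts (-1.80 ± 0.33, adjusted p = 0.0147), a call lost without replicate 3 or 4 of S59L OMA1+/- and in a fit of those 8 arrays alone. Of 12 regulators, 3 were called higher and 1 lower in G58R OMA1-/-, 3 and 1 in S59L OMA1+/-, 2 and 1 in S59L OMA1-/- and 0 and 0 in G58R OMA1+/- hearts. These are shares near or below the 33.6%, 36.5%, 29.8% and 1.98% of all genes called, so nothing is read from the counts. Nfe2l2 rose by 0.98 ± 0.25 in G58R OMA1-/-, 1.33 ± 0.21 in S59L OMA1+/- and 1.11 ± 0.21 in S59L OMA1-/- hearts, and was 0.38 ± 0.25 in G58R OMA1+/- hearts (adjusted p = 0.442). Keap1, which marks NRF2 for degradation, was not called in any of the 4 contrasts.

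**Figure D5:**
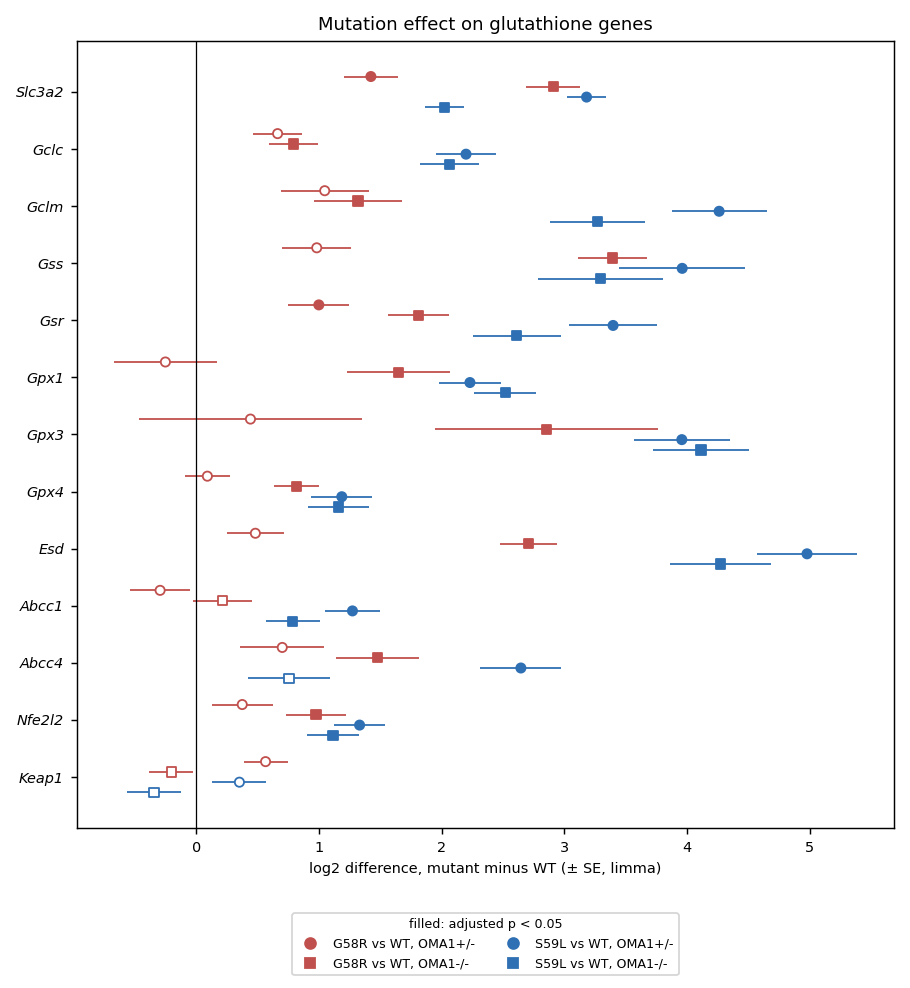
Log2 difference between mutant and WT hearts for genes of glutathione supply (Slc3a2, Gclc, Gclm, Gss), use (Gsr, Gpx1, Gpx3, Gpx4, Esd), export (Abcc1, Abcc4) and NRF2 regulation (Nfe2l2, Keap1), with limma's SE as bars (4 arrays per group). Colours, shapes and filling are as for the members. Gclm is at 4.26 and Gclc at 2.2 in S59L OMA1+/- hearts, and only Slc3a2 and Gsr passed in G58R OMA1+/- hearts among the genes drawn.

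The theta genes lie beside the mutated gene on chromosome 10, with Gstt3, Gstt1, Gstt4 and Gstt2 at 9, 8, 7 and 6 genes before Chchd10 in RefSeq. Of the 30 nearest genes, 17 were measured and 7 were above background on average. Chchd10 itself was at 14.89 to 16.01 in WT OMA1+/- and 16.60 to 17.03 in S59L OMA1+/- hearts of 20 weeks (1.22 ± 0.28, adjusted p = 0.00298). Of the 17, 5 were called higher and 2 lower in S59L OMA1+/- hearts, 2 and 1 in S59L OMA1-/-, 3 and 1 in G58R OMA1-/- and 1 and 0 in G58R OMA1+/- hearts, where 36.5%, 29.8%, 33.6% and 1.98% of all genes were called, and nothing is read from these counts. Mif, a cytokine gene 5 genes before Chchd10, was called higher in all 4 mutation contrasts, by 1.86 ± 0.32, 3.10 ± 0.32, 4.23 ± 0.41 and 3.42 ± 0.41 in the order G58R OMA1+/-, G58R OMA1-/-, S59L OMA1+/- and S59L OMA1-/-. Gstt2 fell by 1.10 ± 0.29 in G58R OMA1-/- hearts (adjusted p = 0.00656), and Gstt3 rose by 0.69 ± 0.21 in S59L OMA1+/- hearts (adjusted p = 0.0188). The Gstt3 level was below background on 3 of 4 WT OMA1+/- arrays, and its call was lost without replicate 3 or 4 of WT OMA1+/- or replicate 2 or 3 of S59L OMA1+/-. Strain sequence that may have come with the engineered alleles was not examined here.

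The group means of Gsta2 spanned 8.35 on the log2 scale over the 8 groups, those of Gstk1 4.26, Gsta3 3.76, Gstm2 3.52, Gsta4 3.36, Gstm1 3.15, Gstt1 1.98, and those of Gstm5 and Gstp1 0.59 each. Across the 32 arrays, centred within each cohort, the genes most like Gsta2 were Gm10639 (Pearson r = 0.97), Sqstm1 (0.965), which encodes the autophagy receptor p62, and Srxn1 (0.965), which encodes sulfiredoxin. The genes most like Gstk1 were Cep112 (0.922), Cox7a1 (0.903) and Nudt4 (0.899), where Cox7a1 encodes a heart and muscle subunit of complex IV. Those most like Gsta3 were Lyve1 (0.854), a marker of lymphatic endothelium and of a class of macrophages, Angptl7 (0.845) and Cyb5a (0.843). The arrays share the group differences, so these values describe likeness of pattern over arrays and carry no test.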

How the data were processed

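RNA from 32 mouse hearts was hybridised to Affymetrix Clariom S Mouse arrays. The authors processed the scans in the Transcriptome Analysis Console with default settings, and the deposited values are log2 gene-level signals from SST-RMA (signal space transformation and robust multi-array averaging). No source used here says whether all arrays were normalized together. Of 28846 probe sets, 6640 were controls and 19572 carried 1 gene symbol (0 several, 2634 none). For the 55 genes with several probe sets, the probe set with the highest mean was kept, which left 19505 genes. The mean of a gene's probe sets was used only as an alternative. Array medians ran from 6.43 to 6.75, and the number of arrays limits the precision. A linear model was fitted with limma 3.58.1 in R 4.3.3 to the 16 arrays of each cohort, with group means and no covariate, and to all 32 arrays for differences between mutations. Tests were two-sided, and a gene was called at a Benjamini-Hochberg adjusted p below 0.05. Overlap of groups was described for named genes only, with no share over all genes, so it makes no call of its own. The paper describes the G58R and WT hearts on OMA1+/- in the younger cohort as coming from littermates. Neither it nor the labels say which hearts share a litter, so litter could not enter the fit. The p-values therefore treat the hearts as independent and rest on the spread between them. Background was the 95th percentile of mean levels of 1410 olfactory and vomeronasal receptor genes. Where all 4 arrays of a group lay below it, a difference is given as at least the other group's mean minus background. The members and gene lists were chosen with earlier results of these data known. All members are named, and of each other list up to 4 called genes per contrast plus a fixed set of glutathione and marker genes. Alternatives covered normalization, model, covariates, left-out arrays and the 7 arrays with high fat-cell markers. The fit was tested on simulated data.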

Additional observations from a re-analysis of the deposited data

Results flagged for a closer look

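The S59L and G58R effects differed past an adjusted p of 0.05 in limma for 5 members on OMA1+/-, by 5.68 for Gsta2, 3.94 for Gstm2, 3.31 for Gstm1, 2.72 for Gsta3 and 2.69 for Gsta4 on the log2 scale. On OMA1-/- they differed for 4, by 3.65 for Gsta4, 3.44 for Gsta3, 3.09 for Gsta2 and 1.81 for Gstm1. Of all genes, 8.33% were called in this comparison on OMA1+/- and 0.933% on OMA1-/-. Each difference was larger with S59L, and mutation, age and cohort cannot be told apart.

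Single hearts stood apart from the other 3 of their group in 4 of 72 sets of 4 values, where chance gives about 1 in 20. Gsta4 was lowest in replicate 1 of WT OMA1+/- at 14 weeks (12.92, against 13.16 to 13.21) and in replicate 1 of WT OMA1+/- at 20 weeks (12.43, against 13.07 to 13.16). Gstt1 was lowest in replicate 4 of WT OMA1+/- at 14 weeks (6.95, against 9.66 to 10.07), the heart of that group without high fat-cell markers. Gstt1 was highest in replicate 2 of G58R OMA1-/- (8.24, against 7.59 to 7.66).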

How the results depend on the processing

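With 1 array left out, 1959 of 2016 values of single members kept their direction and side of the threshold, 30 lost a call, 27 gained one and 0 reversed. Under the other alternatives 1003 of 1026 did, 9 lost a call, 13 gained one and 1 reversed, which was Gstt1 in G58R OMA1+/- hearts (1.87 without the 7 arrays of high fat-cell markers, a setting chosen after seeing the data that leaves WT OMA1+/- at 14 weeks with 1 array, assumed to vary like the other groups). The count of members called in G58R OMA1+/- hearts went from 0 to 1 with all 32 arrays in 1 fit, with sex as a covariate, with only genes above background tested, with the replicate number as a block, and without those 7 arrays. OMA1 loss in S59L hearts went from 0 to 1 without them. Replicate numbers did not pair the hearts (correlations of -0.32 to 0.27 at 14 weeks and -0.17 to 0.22 at 20 weeks), and the block changed the count of members called to 1 in G58R OMA1+/- hearts. Leaving out 1 array gave 0 to 1 members called for G58R on OMA1+/-, 2 to 4 on OMA1-/-, 6 to 8 for S59L on either, 2 to 3 for OMA1 loss in G58R, 0 to 3 in WT at 14 weeks, 0 to 0 in S59L and in WT at 20 weeks, 0 to 2 and 0 to 0 for the interactions with G58R and S59L, and 4 to 6 and 2 to 5 for the differences between mutations on OMA1+/- and OMA1-/-. Quantile normalization moved the share of higher calls from 63.6% to 50.3% in the difference between mutations on OMA1+/-. Probe sets of close paralogs limit which gene a signal belongs to.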
